A study of Mus musculus with 13 samples.

Results

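Kremen1 and 9 other Wnt pathway genes, which comprise the co-receptor genes Lrp5 and Lrp6 and genes of regulators outside and inside the cell, were examined for OCT4 and SMAD3 binding in mouse embryonic fibroblasts (MEFs) on day 3 of reprogramming. The genes were Kremen1, Kremen2, Dkk1, Dkk2, Dkk3, Lrp5, Lrp6, Sfrp1, Sfrp2 and Axin2. They were chosen by the OCT4 peak values, because the reproducible OCT4 peak with the highest −log10 q lies inside Kremen1, so the OCT4 values at Kremen1 are given as a description with no test. All 10 were found in the GENCODE vM21 annotation of mm10, among 21938 protein-coding genes on chromosomes 1 to 19, X and Y. The window of a gene was its annotated span plus 10 kb on each side, and a peak belonged to the window if they shared at least 1 bp. The member windows ran from 23.8 to 140 kb with a median of 60.6 kb, against a median of 37.4 kb over all protein-coding genes.

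Canonical Wnt ligands bring a Frizzled receptor together with LRP5 or LRP6, the co-receptors, and this spares β-catenin from destruction. Secreted DKK proteins bind LRP5 and LRP6 and block this step, and the membrane proteins KREMEN1 and KREMEN2 bind DKK1 and remove LRP6 from the cell surface. SFRP proteins resemble the ligand-binding part of Frizzled and sequester Wnt ligands, while AXIN2 is a scaffold of the destruction complex and a target of the pathway that acts as feedback. DKK3 is a divergent member of its family that does not bind the co-receptors as DKK1 does.

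All cells were MEFs from a TNG MKOS mouse line with one Nanog allele replaced by GFP, a tetO-driven cassette of c-Myc, Klf4, Oct4 and Sox2 (MKOS) with mOrange at one Sp3 allele and rtTA under the ubiquitous CAG promoter, on a mixed background that included CD1, from embryos of both sexes. All were also infected with a retrovirus for Smad3CA, a constitutively active SMAD3, so the Dox- cells carried active SMAD3 too and the comparison has no group without it. Dox+ cells received doxycycline for 3 days, which induces MKOS, and Dox- cells received none. The dose was 1 µg/ml per the labels, while the general reprogramming methods of the study give a lower one. OCT4 was immunoprecipitated from Dox+ cells (n = 3), SMAD3 from Dox+ cells (n = 3) and from Dox- cells (n = 3), and inputs were sequenced from Dox+ (n = 2) and Dox- cells (n = 2). OCT4 was not measured in Dox- cells, the SMAD3 antibody was not stated to tell SMAD3CA from the cells' own SMAD3, and RNA was not among these 13 samples, so binding is not tied to expression here. The labels do not say whether replicates came from separate cultures, and p-values measure the spread between these samples only.

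Replicate lists differed widely in length. OCT4 lists held 1181, 1115 and 102 peaks for replicates 1, 2 and 3. SMAD3 lists held 420, 23981 and 10374 peaks in Dox+ and 1656, 18588 and 4038 in Dox-. The merged lists, which the authors called on the pooled replicates, held 2022 peaks for OCT4, 12576 for SMAD3 Dox+ and 11512 for SMAD3 Dox-. A missing peak in a short list is therefore not evidence of absent binding, and the part of list length in any difference below was not tested.

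The sequences at the sites that carry the results are given first, each 201 bases long on the plus strand of GRCm38 (the assembly of mm10), from the summit or center with 100 bases on each side. Capitals mark a match to any of the motifs searched on both strands, which were the SOX site CATTGT, the OCT-SOX composite, the octamer ATGCAAAT, the KLF sites GGGCGTGG and GGGTGTGG, the AP-1 site TGACTCA with its reverse TGAGTCA, the SMAD half-site CAGAC, the SMAD palindrome GTCTAGAC and the TCF/LEF site ATCAAAG. The composite holds the SOX site within it. The first sequence (chr11:5237874-5238074) is shown because it lies under the OCT4 peak with the highest −log10 q, and the second (chr11:5261672-5261872) because it lies under the weaker OCT4 peak at the Kremen1 start.
Kremen1 intron OCT4 peak: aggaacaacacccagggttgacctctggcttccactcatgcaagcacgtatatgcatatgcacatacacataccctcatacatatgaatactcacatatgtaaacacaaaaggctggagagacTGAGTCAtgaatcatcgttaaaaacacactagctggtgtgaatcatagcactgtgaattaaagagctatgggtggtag
Kremen1 promoter-side OCT4 peak: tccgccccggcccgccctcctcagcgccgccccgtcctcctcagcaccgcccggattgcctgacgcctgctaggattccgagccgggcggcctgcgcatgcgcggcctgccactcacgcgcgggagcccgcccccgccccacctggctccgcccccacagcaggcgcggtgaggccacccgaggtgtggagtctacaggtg
The third (chr8:23410541-23410741) lies under the only OCT4 peak at another member, and the next pair (chr11:5263230-5263430 and chr7:112158575-112158775) are the centers of the SMAD3 sites that the authors listed as higher and lower in Dox+.
Sfrp1 OCT4 peak of replicate 2: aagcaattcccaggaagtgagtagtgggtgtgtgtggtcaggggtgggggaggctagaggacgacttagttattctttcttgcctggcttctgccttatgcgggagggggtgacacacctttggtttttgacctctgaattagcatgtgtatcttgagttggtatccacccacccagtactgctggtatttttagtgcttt
Kremen1 upstream SMAD3 site: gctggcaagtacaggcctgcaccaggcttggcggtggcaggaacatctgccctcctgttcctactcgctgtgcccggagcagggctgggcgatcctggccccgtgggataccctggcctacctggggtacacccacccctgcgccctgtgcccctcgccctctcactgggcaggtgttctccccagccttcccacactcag
Dkk3 SMAD3 site: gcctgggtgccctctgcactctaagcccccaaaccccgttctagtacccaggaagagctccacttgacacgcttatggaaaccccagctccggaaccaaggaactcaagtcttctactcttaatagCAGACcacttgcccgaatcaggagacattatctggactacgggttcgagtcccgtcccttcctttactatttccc
The last (chr6:134566984-134567184) is the center of the SMAD3 site at the Lrp6 start, which was called in more replicate lists than any other site of these genes.
Lrp6 SMAD3 site: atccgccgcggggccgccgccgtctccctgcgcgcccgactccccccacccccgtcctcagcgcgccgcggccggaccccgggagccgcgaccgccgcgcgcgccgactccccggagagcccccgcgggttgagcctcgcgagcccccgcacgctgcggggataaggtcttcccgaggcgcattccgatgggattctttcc

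The Kremen1 intron sequence held 1 match, an AP-1 site whose bases lie 23 to 29 bp from the OCT4 summit, and no octamer, composite or SOX site. The 2022 merged OCT4 peaks have 2083 summit entries, since a peak can hold more than one. Over these 2083 summits, 5.28% held the AP-1 site within 100 bp, 6.58% the octamer, 1.92% the composite and 29.2% the SOX site. A KLF site was found at 6.91% of the summits, a TCF/LEF site at 4.75%, the SMAD half-site at 30.6% and the SMAD palindrome at 0.0960%. The Kremen1 promoter-side and Sfrp1 OCT4 sequences held no match to any of the motifs. The promoter-side sequence had a GC content of 76.6%, against 42.3% in the intron sequence. The Dkk3 site held 1 SMAD half-site, 26 to 30 bp from its center, and the Kremen1 upstream and Lrp6 sites held no match. The same half-site was found within 100 bp of the center in 35.7% of 13218 SMAD3 regions, rebuilt as described below. A match describes the letters in this window only, and no match says only that these letters are not in it.

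OCT4 was called at 1 of the 10 genes in the merged list. Kremen1 had 2 merged OCT4 peaks and the other 9 windows had none, while 4.85% of all protein-coding genes had a merged OCT4 peak in the same kind of window. This count reflects how the genes were chosen, and nothing is read from it. In the replicate lists, Kremen1 was present in all 3, and Sfrp1, which encodes a secreted Wnt antagonist, in replicate 2 alone.

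The intron peak of Kremen1 (chr11:5237799-5238156) had a fold enrichment over input of 18.7 and a −log10 q of 65.8 in the merged list, the highest −log10 q of its 2022 peaks. Its fold was 17.1 in replicate 1, 24.4 in replicate 2 and 14.6 in replicate 3. It ranked first by −log10 q in replicates 1 and 2 and was 2nd of 102 in replicate 3. By fold it was 3rd of 2022 in the merged list, first in replicates 1 and 2 and 3rd of 102 in replicate 3. The summits of replicates 1, 2 and 3 lay at 26, -23 and -7 bp from the merged summit, so the 3 libraries placed it within a short stretch. The AP-1 match in the printed sequence lies beside these summits.

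The summit sits in intron 3 of the 8 introns of the longer transcript, 23584 bp from its start. In the shorter transcript it lies in the first intron, 474 bp downstream of that transcript's start, which makes the peak distal to one annotated start and close to another. No exon overlapped the printed sequence.

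The other Kremen1 OCT4 peak (chr11:5261667-5261869) lay upstream of the gene, its center 210 bp from the start of the longer transcript. It had a fold of 6.12 and a −log10 q of 6.06 in the merged list, where it ranked 1362nd of 2022 by −log10 q. No replicate list held it, so it rests on the pooled reads. In Sfrp1 the peak of replicate 2 (chr8:23410564-23410730) had a fold of 5.59 and a −log10 q of 5.33, 855 bp upstream of the transcript start, and the merged list did not hold it.

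**Figure D1:**
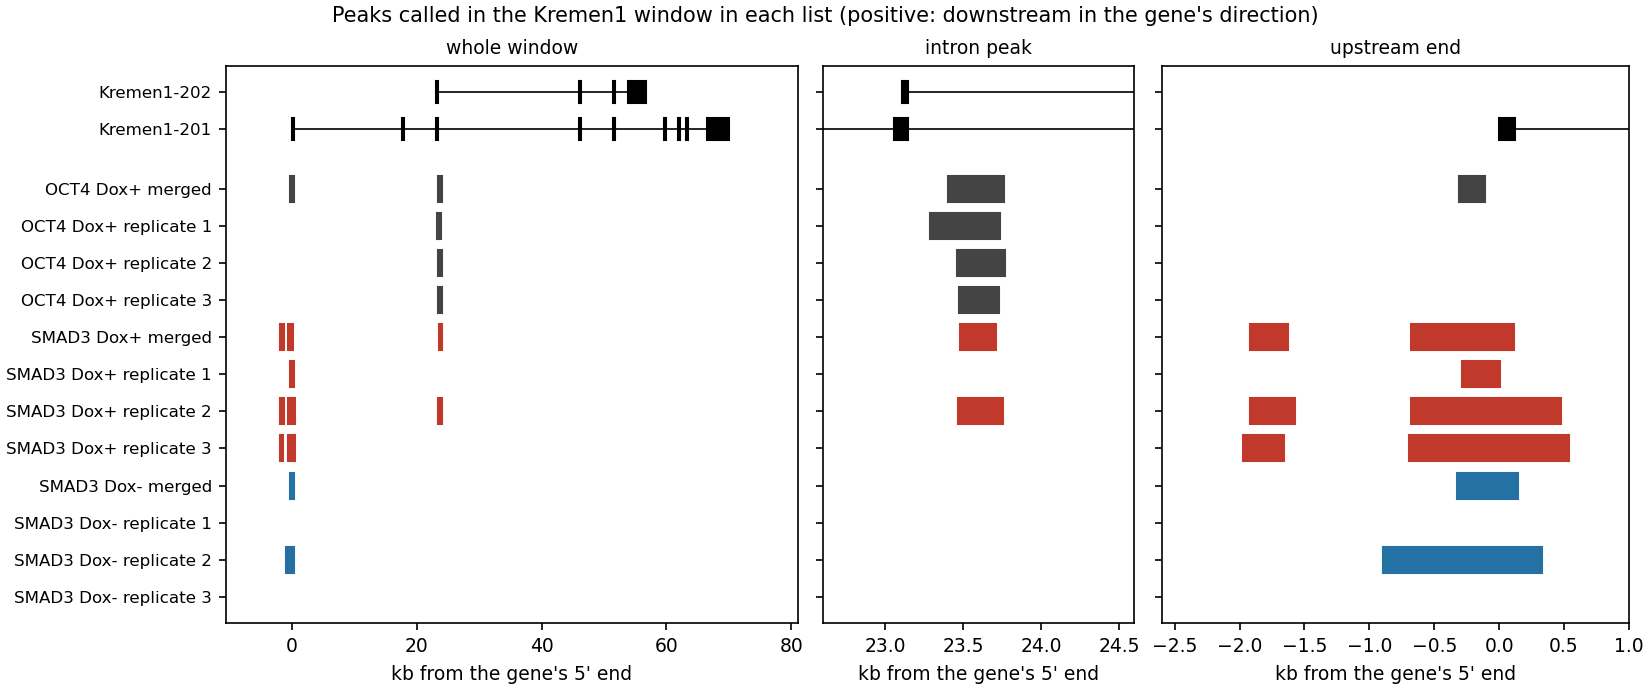
Peaks in the Kremen1 window in each of the 12 peak lists (rows), by distance in kb from the 5′ end of the gene in its own direction, with the exons of the longer and shorter transcripts above and peaks narrower than the drawing limit widened to be visible. The intron OCT4 peak is in all 4 OCT4 lists, while the SMAD3 peak there is in the merged Dox+ list and Dox+ replicate 2, and no Dox- list has one.

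SMAD3 peaks at Kremen1, which were not used to choose the genes, fell at 3 places. At the intron OCT4 peak, SMAD3 was called in the merged Dox+ list with a fold of 2.68 and a −log10 q of 3.36. Among the Dox+ replicates it was called in replicate 2 alone, with a fold of 1.52 and a −log10 q of 0.638, and in no Dox- list. By −log10 q the SMAD3 peak ranked 22898th of 23981 in that replicate list and 2593rd of 12576 in the merged Dox+ list. With 1 of 6 replicate lists, this site was not among the regions compared between Dox+ and Dox- by the authors as rebuilt here.

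At the Kremen1 start, SMAD3 was called in Dox+ replicates 1, 2 and 3 with folds of 3.08, 2.81 and 1.96, and in Dox- replicate 2 with a fold of 2.38. The merged folds were 2.90 in Dox+ and 1.91 in Dox-. The Dox+ and Dox- folds overlap, and the site was compared by the authors and not listed as different. Kremen1 was the only member with a peak in Dox+ replicate 1, the shortest SMAD3 list, in which 2.57% of protein-coding genes had a peak. The SMAD3 interval there covers the weaker OCT4 peak.

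The third place, 1772 bp upstream of the Kremen1 start, was called in Dox+ replicates 2 and 3 with folds of 3.89 and 1.94, in neither Dox+ replicate 1 nor any Dox- list, and in the merged Dox+ list with a fold of 2.31. The authors listed it (chr11:5263129-5263530) among the sites that were higher in Dox+. Its mean concentration, on the authors' log2 scale of normalized reads, was 3.16 in Dox+ and 0.44 in Dox-, a difference of 2.72. The Dox- mean is the lowest value of its column, shared by 276 of the 2080 listed sites, so the difference is bounded by that floor. By the size of the difference the site ranked 271st of the 1176 sites listed higher in Dox+. No OCT4 peak of any list lay on it.

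The pooled coverage over input gave the depth of SMAD3 at the OCT4 peaks on 1 scale, on which 1 is the mean coverage of the genome and the input is subtracted. Over the central 200 bp of the intron peak the OCT4 signal was 96.2, against a median of 21.6 over 2083 loci. These loci are the summit entries of the 2022 peaks, so a peak with several summits counts more than once in the medians and ranks. For SMAD3 it reached 23.9 with dox and -2.46 without, and the medians over all loci were 7.24 and 0.0280. The SMAD3 value in Dox+ ranked 21st of 2083, and the Dox+ minus Dox- difference of 26.4 ranked 6th. With each of the 2022 peaks counted once, a count added after seeing the data, these ranks were also 21 and 6. Over the central 1000 bp the difference was 6.56. A difference above 0 was found at 95.5% of the OCT4 loci, so its sign at Kremen1 is that of most loci.

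The OCT4 and SMAD3 Dox+ profiles at the intron both had their highest bin 15 bp from the center of the peak. The width at 0.5 of that height was 250 bp for OCT4 and 200 bp for SMAD3. Beyond 1500 bp from the center the mean signals were 0.122 and 0.266, close to the input. Each matrix pools 3 replicates, so these values have no replicate error.

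At the promoter-side OCT4 peak the signals stood otherwise against the medians of all loci. OCT4 was 17.0, below its median of 21.6. SMAD3 was 18.2 in Dox+ and 5.86 in Dox-, above its medians of 7.24 and 0.0280. OCT4 and SMAD3 come from different antibodies, so their heights are not compared with each other here. The authors' own comparison, over a wider region of 1231 bp and given below, listed higher OCT4 there. The SMAD3 Dox- value ranked 55th of 2083, whereas the intron peak ranked 1811th. The Dox+ minus Dox- difference was 12.4, the 378th highest, and 4.75 over the central 1000 bp. With each peak counted once, the promoter-side Dox- value ranked 53rd, the intron Dox- value 1758th and the promoter-side difference 365th of 2022. The highest SMAD3 Dox+ bin, at 21.8, lay 1645 bp from the center on the upstream side, inside the listed upstream site. The SMAD3 Dox- profile had its highest bin, 19.8, at -255 bp, on the gene side.

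**Figure D2:**
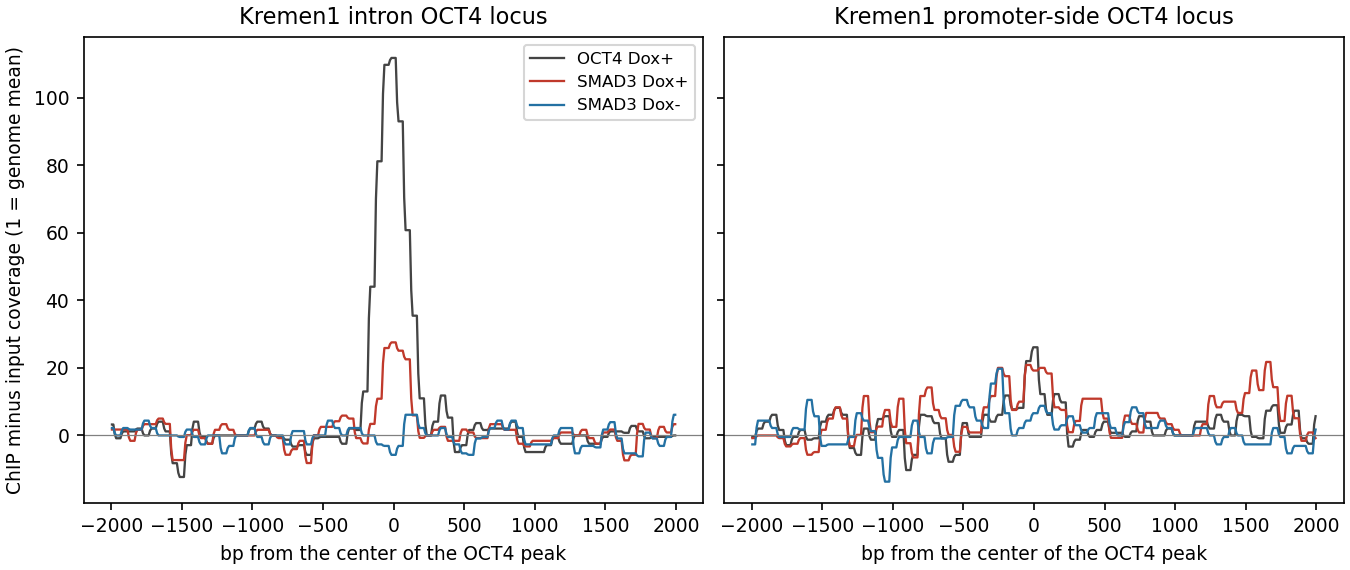
Pooled coverage minus input (vertical axis, 1 is the genome mean) against distance in bp from the center of the Kremen1 intron OCT4 peak (left) and promoter-side OCT4 peak (right), for OCT4 Dox+, SMAD3 Dox+ and SMAD3 Dox-. At the intron OCT4 reaches 112 and SMAD3 Dox+ 27.6 in the same bin while SMAD3 Dox- reaches 6.13, and at the promoter side the highest bins are 26.1, 21.8 and 19.8.

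Of the other merged OCT4 loci, those most like the intron peak were sought by the distance over the 3 signals, each divided by its SD over 2083 loci. The nearest lay closest to the starts of Sox21, Gm2115 and Cnpy1, at distances of 1.76, 3.50 and 3.55, against a median of 10.2 over all loci. The Sox21 locus had signals of 89.7 for OCT4, 19.7 for SMAD3 Dox+ and 2.39 for SMAD3 Dox-. The corresponding signals were 70.9, 20.3 and -5.74 at the Gm2115 locus and 72.6, 16.3 and 1.65 at the Cnpy1 locus. All 3 were in all 3 OCT4 replicate lists. The OCT4 signal that chose the gene is 1 of the 3 signals, at 96.2 against a median of 21.6 and an SD of 7.64. High OCT4 at the nearest loci and their presence in the OCT4 lists are thus built into the distance, and nothing is read from them.

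**Figure D3:**
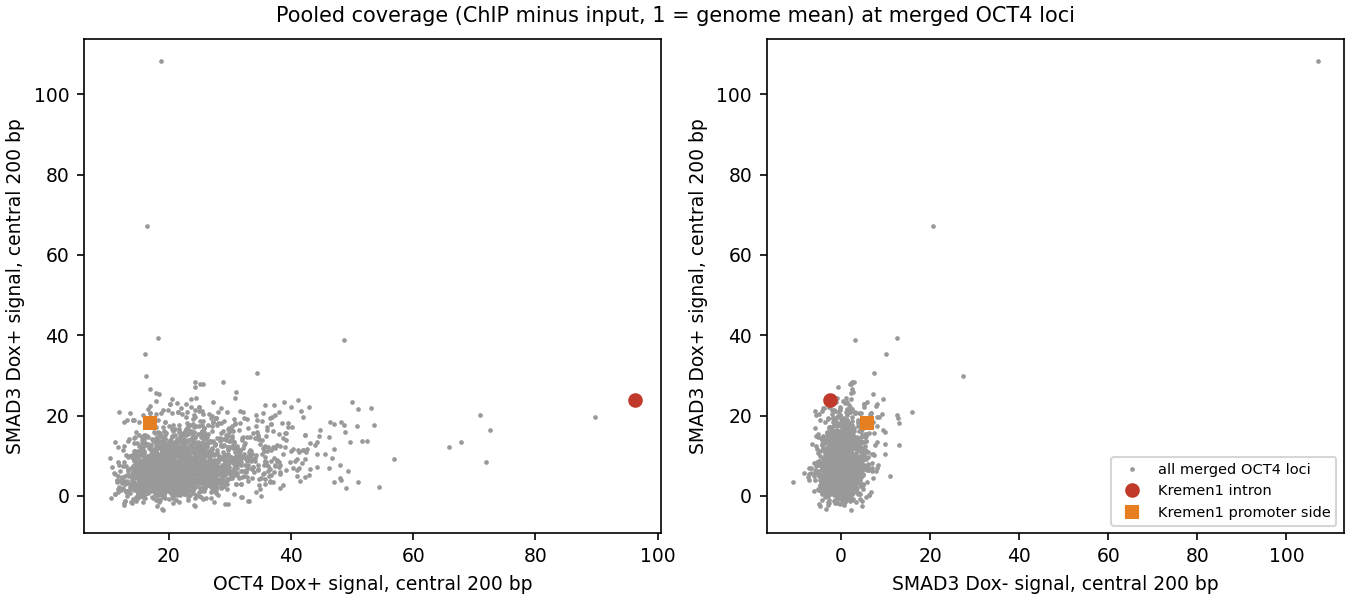
SMAD3 Dox+ signal over the central 200 bp of each of the 2083 merged OCT4 loci against the OCT4 signal (left) and the SMAD3 Dox- signal (right), 1 point per summit entry, on the scale where 1 is the genome mean. The Kremen1 intron locus, at 96.2 for OCT4 and 23.9 for SMAD3 Dox+, lies at the far right of the first panel, and the promoter-side locus, at 17.0 and 18.2, lies among the other loci.

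Across the 10 genes, SMAD3 was called at 4 in the merged Dox+ list (Kremen1, Lrp5, Lrp6 and Sfrp1) and at 5 in the merged Dox- list (Kremen1, Dkk3, Lrp5, Lrp6 and Axin2). In all protein-coding genes the shares were 52.5% and 48.0%, so the counts of members were near the background. The replicate lists gave 1, 7 and 3 members in Dox+ and 1, 7 and 2 in Dox-, and the longest list of each group gave the most. Of all protein-coding genes, replicates 1, 2 and 3 gave 2.57, 63.0 and 47.0% in Dox+. In Dox- they gave 10.8, 56.3 and 22.2%. Of the 20 SMAD3 sites in the windows, 9 had their center within 1 kb of a transcript start of the member. Among all merged SMAD3 peaks, 8652 of 12576 in Dox+ and 7599 of 11512 in Dox- lay that near a start of any coding gene. The sites also join replicate peaks, so these counts are not on the same measure. By protein-coding transcripts alone, 3 sites lay nearer the start of a neighboring gene. For 1 of these, in an Lrp6 exon, another Lrp6 transcript started closer, 14009 bp away against 36571 bp for the neighbor. Only 2 sites were in at least 3 of the 6 replicate lists, and 12 were in 1.

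The SMAD3 length in each window, the number of bp inside peaks of a replicate list, was compared between Dox+ and Dox- with exact two-sided permutation tests. With 3 against 3 lists the smallest p is 0.1, so no gene could pass 0.05, and the p-values below are unadjusted. At Kremen1 the length was 295, 1793 and 1547 bp in Dox+ replicates 1, 2 and 3 and 0, 1225 and 0 bp in Dox-. The Dox+ mean was 1212 ± 803 bp (SD, n = 3) and the Dox- mean 408 ± 707 bp (SD, n = 3), a difference of 803 bp (exact permutation p = 0.2). The groups overlap, since Dox+ replicate 1 lies below Dox- replicate 2. The lists differ in length in the same libraries, and the part of that in the difference was not tested.

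The co-receptors had SMAD3 at their starts in both conditions. At Lrp6 a site centered 119 bp upstream of the start was called in Dox+ replicates 2 and 3 with folds of 1.94 and 2.24, and in Dox- replicates 1, 2 and 3 with folds of 2.85, 2.16 and 2.37. The length in the Lrp6 window was 0, 1153 and 853 bp in Dox+ and 298, 776 and 799 bp in Dox- (exact permutation p = 0.8, n = 3 and 3). The groups overlap in full, and the site was compared and not listed. One more Lrp6 site, in an exon near the 3′ end of the gene, was called in Dox+ replicate 2 alone.

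Lrp5 had a site at its start, called in Dox+ replicate 2 with a fold of 3.10 and in Dox- replicate 2 with a fold of 1.89, and an intronic site 43960 bp from the start, called in Dox+ replicate 3 (2.55) and Dox- replicate 2 (3.02). Neither was listed. The length was 0, 1295 and 666 bp in Dox+ and 0, 1446 and 0 bp in Dox- (exact permutation p = 1, n = 3 and 3). A further Lrp5-window site of Dox+ replicate 2 lay 376 bp from the start of the neighbor Ppp6r3.

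Among the DKK genes, Dkk3 stood on the Dox- side. No Dox+ list had a SMAD3 peak in its window, while a site 382 bp downstream of its start, its center in an intron, was called in Dox- replicates 2 and 3 with folds of 3.23 and 2.21. A second, intronic site, 10848 bp downstream, was called in Dox- replicate 2 with a fold of 2.94. The length was 0, 0 and 0 bp in Dox+ and 0, 1205 and 879 bp in Dox- (difference -695 bp, exact permutation p = 0.4, n = 3 and 3). With the 420 strongest peaks kept per list the difference was 0. The groups touch at 0 through Dox- replicate 1, a list of 1656 peaks.

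The authors listed the first Dkk3 site (chr7:112158218-112159131) as lower in Dox+, with mean concentrations of 2.58 in Dox+ and 4.10 in Dox- on the log2 scale. The difference of -1.52 ranked 653rd in size of 904 sites on that side. The Dox+ mean lies above 0.20, the lowest of its column, so unlike the Kremen1 upstream site neither mean is at a floor.

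Dkk1, which encodes the founding secreted inhibitor of LRP6, had 1 SMAD3 site, centered 147 bp inside the gene at its start, in Dox+ replicate 2 (fold 2.53) and in no other list. Dkk2 had no peak of either factor in any list although its window, at 115 kb, is one of the longest of the members. Kremen2 had 2 SMAD3 sites, both in Dox+ replicate 2 alone. One lay 83 bp from the start of the neighbor Paqr4 and the other 3245 bp upstream of Kremen2, with folds of 2.31 and 2.79. The exact permutation p was 1 for the lengths at Dkk1 and Kremen2.

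The SFRP genes had peaks mainly in the replicate 2 lists. At Sfrp1 the start was called in Dox+ replicate 2 (fold 2.00) and Dox- replicate 2 (fold 3.08), and a site beyond the 3′ end in Dox- replicate 2 (2.26). The Dox+ interval of 1099 bp reached over the OCT4 peak of the same replicate number, while the Dox- peak of 194 bp did not. Sfrp2 had 3 sites, all in Dox- replicate 2 alone, with folds of 2.12, 1.97 and 2.38, of which 1 lay 213 bp upstream of its start. Its length was 2514 bp in that list and 0 in the other 5. The exact permutation p was 1 for both genes.

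Axin2 had a site at its start, called in Dox+ replicate 2 (fold 2.40) and Dox- replicate 2 (1.99), and an intronic site called in Dox- replicate 2 (1.96). The site at the start was compared and not listed. The length was 0, 447 and 0 bp in Dox+ and 0, 699 and 0 bp in Dox- (exact permutation p = 1, n = 3 and 3).

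**Figure D4:**
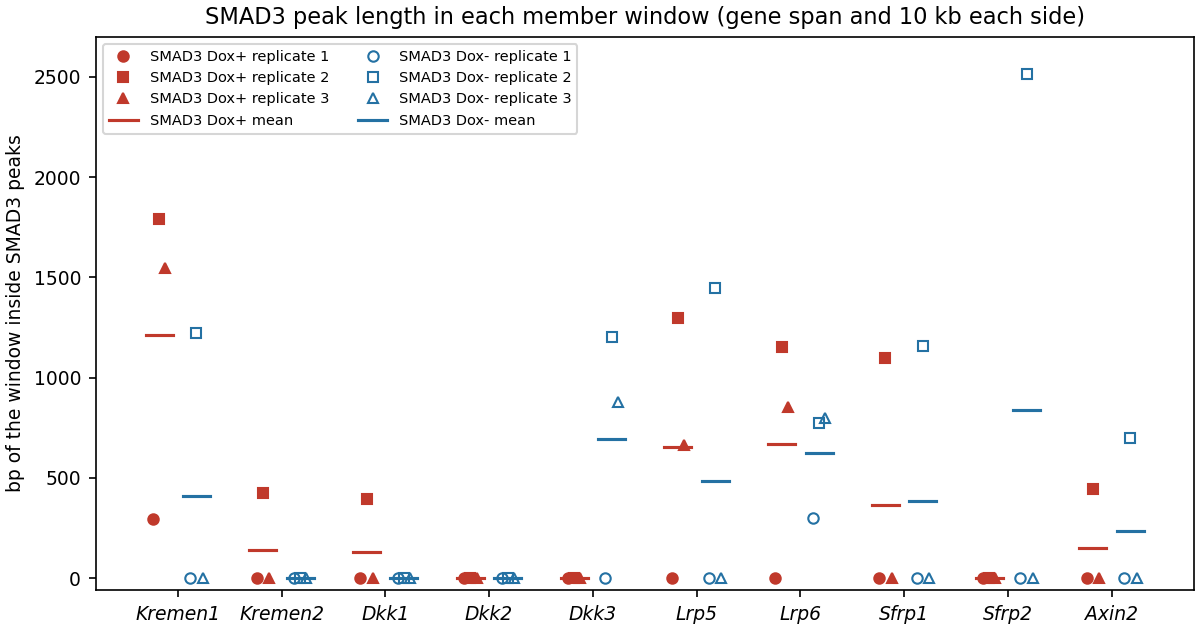
Number of bp inside SMAD3 peaks in the window of each gene (vertical axis), 1 symbol per replicate list, with filled red symbols for Dox+ and open blue symbols for Dox- and a line at each mean of 3. Kremen1 has all 3 Dox+ lists above 0, whereas Dkk2, Dkk3 and Sfrp2 have all 3 at 0. Replicate 2 gives the highest value of its group at most genes.

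The authors' own comparison was placed against the regions it could have covered. Joining the overlapping peaks of the 6 SMAD3 replicate lists and keeping regions in at least 2 lists gave 13218 regions, of which 8 lay in windows of 6 members. The Kremen1 upstream site was the 1 listed higher in Dox+ and the Dkk3 site the 1 listed lower, and the other 6 were not listed. Of all regions 8.90% were listed higher and 6.84% lower, so 1 of 8 in each direction is near the background.

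In the comparison of OCT4 with SMAD3 within Dox+ cells, the rebuilt set was 9903 regions, of which 13.6% were listed with higher OCT4. The member windows held 5 of these regions, and 3 were listed, all with higher OCT4. For Kremen1 the comparison shares the OCT4 libraries that chose the gene, and nothing is read from its direction. The mean concentrations on the log2 scale were 6.69 for OCT4 and 2.07 for SMAD3 at the Kremen1 intron, and 4.55 and 3.35 at the Kremen1 start. At the Sfrp1 start they were 4.53 and 2.18, where the only OCT4 peak called was that of replicate 2. The Kremen1 upstream site and the Lrp6 start were in the set and not listed.

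The wider pathway was described with 81 other Wnt genes in 7 roles. A merged OCT4 peak was found in the windows of 6, against 4.85% of all protein-coding genes. Merged SMAD3 peaks were found at 51 of the 81 in Dox+ and 44 in Dox-, against 52.5% and 48.0% of all protein-coding genes. A site listed higher in Dox+ was found at 5 genes and one listed lower at 4, and the shares of all protein-coding genes were 6.64% and 3.85%. By role, merged SMAD3 peaks were at 12 of 13 receptors and 14 of 14 intracellular transducers in Dox+ and at 10 and 12 in Dox-. In Dox+ and Dox- they were at 3 and 3 of 11 other extracellular antagonists and at 7 and 6 of 19 ligands. The counts were 9 and 8 of 12 nuclear factors and targets and 4 and 4 of 9 genes of the R-spondin axis. For ligand secretion and inactivation they were 2 and 1 of 3. The roles were not tested against each other or against the background, and their window lengths were not compared.

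The merged OCT4 peaks in the 6 pathway windows had folds from 4.19 to 7.10. Wls, which carries Wnt ligands to the cell surface, had a fold of 7.10, and Lgr4, a receptor for R-spondins, had 6.96, each in 2 of the 3 replicate lists. Znrf3, an E3 ligase that removes Frizzled, had 6.06, Sost, a secreted inhibitor of LRP5 and LRP6, 5.85, the tankyrase gene Tnks2 5.05 and the ligand gene Wnt2b 4.19, each in 1 replicate list.

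The Znrf3 window also held a listed site, which was higher in Dox+ at 2.60 against 0.44 on the log2 scale, again at the floor of the Dox- column. That site (chr11:5278965-5279372) lies on the same chromosome as Kremen1, beyond the end of its window. Dkkl1 and Wif1, which the pathway list grouped under other extracellular antagonists, had sites higher in Dox+, at 2.96 against 0.63 and 2.33 against 0.44. The Wif1 value of 0.44 is also at the floor of the Dox- column. Sites lower in Dox+ lay at the feedback inhibitor gene Nkd1, at 0.66 against 3.45, and at the ligand gene Wnt5a, at 3.43 against 5.37.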

How the data were processed

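Per the labels and the methods of the study, the authors trimmed reads (Trimmomatic 0.36), aligned them to mm10 (Bowtie2, very sensitive), removed duplicates, low mapping quality and blacklisted regions, and called peaks with MACS2 2.1.0 against merged inputs, for each replicate and for merged replicates (narrow for OCT4, broad for SMAD3). In the deposited peak lists each peak has a fold enrichment, a linear ratio over input, and a −log10 q, which for broad peaks is an average over the region. The deposited matrices hold a signed score, ChIP minus input coverage scaled by the authors to a genome mean of 1 (deepTools 2.2.3), in 10 bp bins. The authors' DiffBind tables give a log2 mean concentration per group, with no replicate values. Their fold, p-value and false discovery rate columns hold the authors' own comparison and were not used, and only sites past the authors' thresholds are listed.

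Peaks sharing a region were joined, and overlap was at least 1 bp. Windows, covered length, the rebuilt regions, motif searches and signal over the central 200 bp were computed in Python 3.11.15 with numpy 2.4.6, pandas 2.3.3 and pysam 0.24.0, and figures with matplotlib 3.10.9. Replicate lists were compared with exact permutation tests. Both the overlap and the permutation code were tested on simulated data. The members, the pathway and motif lists and the tests were chosen with earlier results of these data known. All 10 members are described. Other pathway genes are named, up to 10, where a merged OCT4 peak or a listed site lay in the window, by OCT4 fold and then by the difference of concentrations, and their windows are defined as for the members. The motif search around SMAD3 sites was added after the data were seen. Sequences come from the RefSeq copy of GRCm38.p6, whose chromosomes 1 to 19, X and Y held 87558 of the 87565 peaks of all lists within their lengths, and the others lay on other sequences. A RefSeq promoter table held 5 of the 10 members and was not used for printing. Read totals per library were not used here, so list length stands in for depth, and gapped peaks were not used.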

Additional observations from a re-analysis of the deposited data

How the results depend on the processing

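The merged OCT4 count of 1 gene was the same with the gene span alone, 50 kb on each side or peaks in at least 2 replicate lists. It was also the same at a −log10 q of at least 5 or with at least 0.5 of the peak inside the window. From replicate lists leaving out each replicate in turn, the count was 1 to 2. Kremen1 was chosen by its intron OCT4 peak, so it had to remain under these settings and nothing is read from that. Only the other members could change the count. The merged SMAD3 counts of 4 in Dox+ and 5 in Dox- were the same with the gene span alone. They were 5 and 7 with 50 kb on each side. The counts fell to 2 and 2 with peaks in at least 2 replicate lists, and to 1 and 2 at a −log10 q of at least 2. From replicate lists they were 3 to 7 in Dox+ and 2 to 7 in Dox-, where leaving out Dox- replicate 2 left Dkk3 and Lrp6. The 2 listed SMAD3 sites became 1 with the gene span alone, which loses the Kremen1 upstream site, and 5 with 50 kb, alternatives chosen after seeing the data. The share of all protein-coding genes was not computed under these other settings, so no change of a count is read as a trait of the members. The SMAD3 signal difference of 26.4 at the Kremen1 intron was 6.56 over 1000 bp, 30.9 over 100 bp and 23.2 with negative bins set to 0. At the promoter side, 12.4 became 4.75 over 1000 bp and 13.7 over 100 bp.

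The Kremen1 difference in SMAD3 length stayed positive, from 513 to 1262 bp leaving out each replicate (exact permutation p from 0.2 to 0.5), 327 bp with the gene span alone, 501 bp at a −log10 q of at least 2, where Dox+ replicate 2 alone had peaks, and 98.3 bp with 420 peaks kept per list, where Dox+ replicate 1 alone had one. With the replicate number as a replicate block it was 803 bp (exact sign-flip permutation p = 0.25, the smallest 3 pairs allow). Deviations of same-numbered lists over all protein-coding windows correlated at 0.53, 0.51 and -0.06 for replicates 1, 2 and 3. Those of lists with different numbers correlated from -0.60 to 0.28. Replicates 1 and 2 thus went with their own number and replicate 3 did not. The main tests did not pair the lists, and a shared replicate or list length structure was not tested. For the other 9 members 13 of 99 alternatives turned the sign: Lrp5 gave -165 bp with the gene span alone, -278 bp at the stricter −log10 q and -149 to 654 bp leaving out replicates, Lrp6 -198 to 379, Sfrp1 6.33 with the gene span alone and -387 to 366, and Axin2 -233 to 149. In another 17 of the 99 the difference was 0 where it had not been, such as Dkk3 with 420 peaks kept per list and Sfrp2 without Dox- replicate 2. Leaving out each replicate, Dkk3 ran from -1042 to -439.5 bp (exact permutation p from 0.1 to 0.4). No cause of these changes was tested. The short lists and pooled matrices limit every statement on absence.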
